A study of Mus musculus with 6 samples.

Results

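Cytosolic ribosomal protein genes and their paralogues were read from RNA-Seq counts of mouse lip tissue. Members were the gene symbols that begin with Rpl or Rps and a number, with Rplp0 to Rplp2 and Rpsa, leaving out symbols with -ps and the Rps6k kinases, and that reached 1 CPM, a read count scaled to library size, in 3 or more libraries. Of the 26814 symbols with counts, 89 had a matching name and 85 of these also passed the filter on level. They comprised 46 core genes of the large (60S) subunit, 31 core genes of the small (40S) subunit, 7 paralogues and Rps19bp1, whose product binds the 40S protein Rps19. The study asked which genes change expression in the absence of GTF2IRD1, a transcription factor encoded in the chromosomal region that is deleted in Williams-Beuren syndrome. Top lip was taken from adult female mice, 3 knockout mice of the Gtf2ird1 tm1Hrd line (KO) and 3 wild type (WT), all on a C57BL/6J background. Each mouse gave 1 library of paired-end reads of 100 nucleotides. The knockout is not limited to a cell type, and top lip is a mixture of epidermis, hair follicles, dermis, fat and striated muscle.

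The cytosolic ribosome joins a small subunit, which reads the mRNA, to a large subunit, which forms the peptide bond, and most of its proteins are present in 1 copy. Core ribosomal protein mRNAs are among the most abundant of a cell and usually begin with a pyrimidine stretch, the 5′ terminal oligopyrimidine (TOP) tract, through which their translation follows growth signals. A few core proteins have a paralogue that can take their place in the ribosome, and some of these are restricted to a tissue. Rpl3l, which replaces Rpl3 in ribosomes of skeletal and heart muscle, is the best known of them in mouse.

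Whether a read can be assigned to a paralogue or to its parent depends on how alike the sequences are, so the first 120 bases of coding sequence are shown for 3 pairs, with the bases that differ in capitals. Sequences and positions are those of GENCODE for GRCm38. Rpl3 lies on chromosome 15 (80077791 to 80091868, minus strand) and Rpl3l on chromosome 17 (24727820 to 24736143, plus strand), and each model has 10 exons.
Rpl3: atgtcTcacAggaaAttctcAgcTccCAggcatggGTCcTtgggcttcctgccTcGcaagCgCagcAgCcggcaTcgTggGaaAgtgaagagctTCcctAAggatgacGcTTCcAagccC
Rpl3l: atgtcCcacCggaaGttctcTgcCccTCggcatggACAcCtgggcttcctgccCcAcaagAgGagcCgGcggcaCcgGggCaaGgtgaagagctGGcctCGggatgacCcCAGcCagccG
Rpl36a lies on chromosome X (134585654 to 134588062, plus strand) and Rpl36al on chromosome 12 (69182731 to 69184083, minus strand).
Rpl36a: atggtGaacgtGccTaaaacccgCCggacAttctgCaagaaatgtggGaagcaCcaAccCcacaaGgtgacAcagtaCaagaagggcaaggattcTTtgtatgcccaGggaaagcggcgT
Rpl36al: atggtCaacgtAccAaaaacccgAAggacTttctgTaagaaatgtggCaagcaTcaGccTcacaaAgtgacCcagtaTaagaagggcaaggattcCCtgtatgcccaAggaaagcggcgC
Rps27 lies on chromosome 3 (90212522 to 90213651, minus strand) and Rps27l on chromosome 9 (66946086 to 66949516, plus strand).
Rps27: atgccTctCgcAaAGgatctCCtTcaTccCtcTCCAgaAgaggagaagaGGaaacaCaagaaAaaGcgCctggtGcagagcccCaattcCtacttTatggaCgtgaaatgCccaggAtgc
Rps27l: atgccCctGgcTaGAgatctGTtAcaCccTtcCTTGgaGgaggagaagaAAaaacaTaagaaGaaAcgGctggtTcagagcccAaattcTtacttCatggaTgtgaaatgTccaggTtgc
In these stretches Rpl3l differed from Rpl3 at 31 bases, Rpl36al from Rpl36a at 18 and Rps27l from Rps27 at 28. Over the aligned coding sequence the identity was 74.1% for Rpl3 and Rpl3l, 87.9% for Rpl36a and Rpl36al, 76.1% for Rps27 and Rps27l, 70.2% for Rpl22 and Rpl22l1 and 57.9% for Rpl7 and Rpl7l1. The longest run of bases shared by a pair was 26 nucleotides, in Rpl22 and Rpl22l1, so a read of 100 nucleotides within these coding sequences could not match both genes of any of the 5 pairs exactly.

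Copies of the core genes elsewhere in the genome are far more alike. Of the 77 core mRNA models, 35 had over 50% of their windows of 100 bases repeated exactly in a transcript of another annotated gene, and the median share was 45.3%. The share was 98.4% for Rps27, most of all in Rps27rt, 91.1% for Rpl5, 79.4% for Rpl3 and 5.1% for Rpl4. Among the paralogues it was 0 for Rpl3l and Rps27l, 2% for Rps4y2 and 2.2% for Rpl7l1. It was higher for Rpl22l1 (50.8%), Rpl36al (59%) and Rps3a2 (78.6%). Counts of reads that map to 1 place are therefore uncertain for genes with high shares, while Rpl3l was counted on sequence found in no other annotated transcript.

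The start sites of some members are shown because the TOP tract is what core ribosomal protein mRNAs have in common. RefSeq windows around annotated starts (GRCm38.p6) were available for 57 of the 77 core genes and for 5 of the 7 paralogues. A tract was counted where a C was followed by at least 7 further C or T bases within 30 bases of the annotated start, on the strand of the gene. Such a run could lie upstream of that start, and it began at -17 in Rpl4, -20 in Rpl5, -22 in Rps27l and -1 in Rps6. Where the mRNAs began in this tissue was not measured, so these runs are not shown to be TOP tracts. A gene without such a run is likewise not shown to lack a TOP tract. Each line gives 30 bases with the tract in capitals, or, where no tract was found, the 30 bases centred on the annotated start. The sequences belong to the core genes Rpl4 (chr9:64173360-64173389, plus), Rpl5 (chr5:107900498-107900527, plus), Rps6 (chr4:86857349-86857378, minus), Rps27 (chr3:90213631-90213660, minus) and Rps4x (chrX:102189377-102189406, minus), and to the paralogues Rpl22l1 (chr3:28805501-28805530, plus), Rps27l (chr9:66946054-66946083, plus), Rpl36al (chr12:69184053-69184082, minus) and Rpl3l (chr17:24727811-24727840, plus).
Rpl4: agtgacaagtCTTTCCTTTTCCTgtgggag
Rpl5: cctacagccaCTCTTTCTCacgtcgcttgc
Rps6: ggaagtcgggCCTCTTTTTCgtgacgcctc
Rps27: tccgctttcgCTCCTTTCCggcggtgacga
Rps4x: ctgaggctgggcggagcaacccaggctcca
Rpl22l1: caagcccgttCTCTTCCCacggctgcagct
Rps27l: cccgcctccaCTCCTCTCCactcctccccg
Rpl36al: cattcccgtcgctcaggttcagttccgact
Rpl3l: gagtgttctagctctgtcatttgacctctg
Such a tract was present in 33 of 67 entries of core genes (49.3%), in 2 of 7 entries of paralogues (28.6%) and in 5967 of 32851 entries of all genes (18.2%). Rpl3l had no tract at either of its annotated starts. The median log2 fold change between genotypes was 0.06 in the 31 genes with a tract and 0.08 in the 26 with entries but no tract.

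Total counts on genes ranged from 20164081 to 29491767 per library, and a count of 0 left room for up to 3 counts, which corresponded to 0.0984 to 0.153 CPM. Gtf2ird1 itself had 70.05 to 78.05 CPM in WT and 144 to 166 CPM in KO, so the targeted gene was higher in the libraries labelled KO, and counts per gene do not separate a targeted from an intact allele. All directions are therefore those of libraries by their label. KO replicate 3 weighed on the calls of the whole series, since edgeR's quasi-likelihood test called 971 genes with it and 4891 without it, and counts of calls that change without it are given beside the results.

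Core ribosomal protein genes took 3.80%, 3.88% and 3.96% of all counts in the WT libraries and 4.25%, 4.22% and 4.44% in the KO libraries. These shares of raw counts did not overlap between genotypes, while the summed core levels after TMM scaling did, at 36290 to 41660 CPM in WT and 40810 to 44970 CPM in KO. The ratio of 60S to 40S counts stayed between 1.39 and 1.42 in the 6 libraries. The 156 rows of ribosomal protein pseudogenes with -ps in the symbol held 0.321% to 0.399% as many counts as the core genes. Copies under other symbols, such as Gm names, were not part of this sum. In whole tissue, fewer cells of a type and less RNA per cell cannot be told apart.

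Per kilobase of mRNA model, the core genes had a median WT level of 612 CPM per kb. The highest levels were those of Rplp1, an acidic protein of the ribosomal stalk, with 2147 ± 512 (SD, n = 3), Rps12, a 40S protein, with 1689 ± 173, and Rpl41, the smallest ribosomal protein, with 1495 ± 197 CPM per kb. These 3 levels differed from their neighbours in the order by less than the spread between mice. The lowest levels were those of Rpl24, which sits at the interface of the subunits, with 27.5 ± 4.97, and of Rpl35 and Rpl23a, which lie near the exit of the peptide tunnel, with 104 ± 14.8 and 139 ± 7.08 CPM per kb. In all 3 of these low genes at least 80% of the mRNA windows were repeated in another gene, 80.1% in Rpl24, 83.0% in Rpl35 and 80.0% in Rpl23a. Among the 3 highest genes the share was 88.9% in Rps12, 30% in Rplp1 and 17.2% in Rpl41, so a high share also occurred at a high level.

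No core gene passed an adjusted p of 0.05 between genotypes in edgeR's quasi-likelihood test with Benjamini-Hochberg adjustment over the 15009 genes tested, in either direction. Among all 85 members the count was also 0, where 6.47% of all tested genes were called, 4.38% higher and 2.09% lower in KO. At an unadjusted p under 0.05 there were 12 core genes, all with higher KO means, among them Rpl3, Rpl4, Rpl5, Rpl7, Rps3a1, Rps4x and Rps6, and 15 of the 85 members, where 29.6% of all tested genes met that limit and 13.5% did so with higher KO means. The 3 KO values lay above the 3 WT values in 20 core genes (26.0%) and below them in 0. Over all tested genes the groups were apart in 31.5%, with KO above WT in 13.5% and below WT in 18.1%. Every separation among the core genes thus had KO above WT.

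The fold changes of the core genes were small. The median log2 fold change was 0.08 (0.07 for 60S and 0.09 for 40S genes), beside -0.02 over all tested genes, and the values ran from -0.22 to 0.76. The median size of the fold change without its sign was 0.10 on the log2 scale, against 0.30 for all genes, and the median standard errors were 0.16 and 0.20. The 95% confidence interval lay within a doubling or a halving, a log2 fold change of -1 to 1, in 69 of 77 core genes (89.6%) and in 67.3% of all tested genes.

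**Figure D1:**
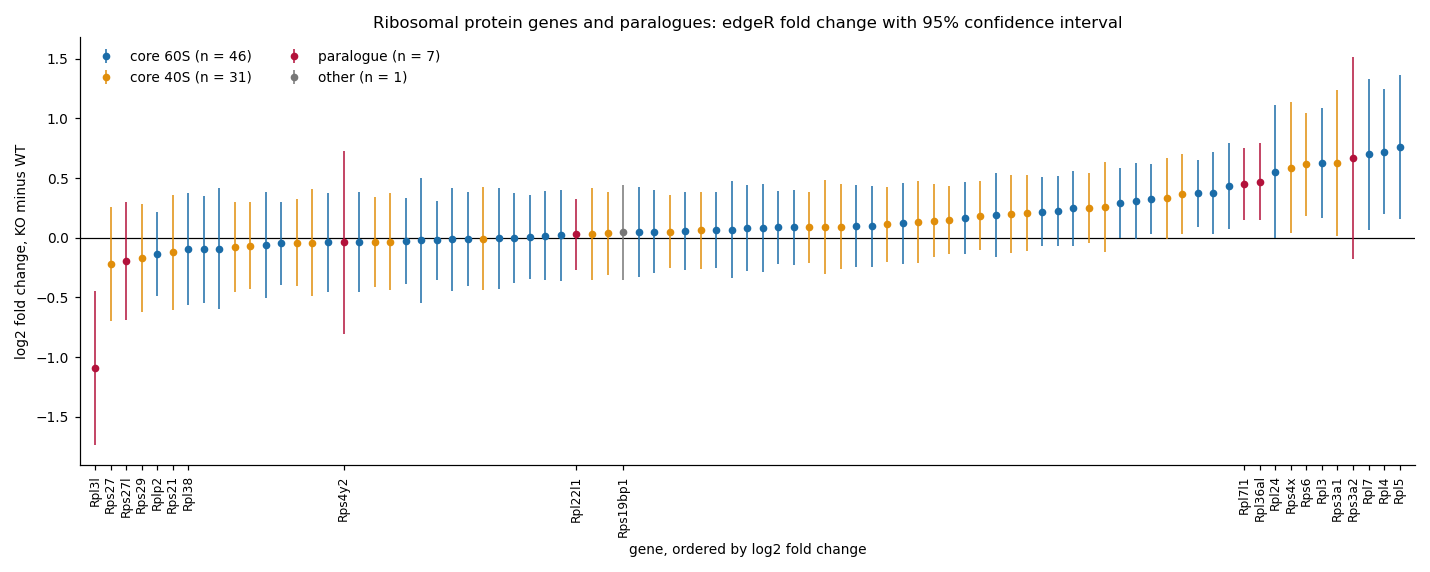
Log2 fold change (vertical axis, KO minus WT) of the 85 members in rising order, with the paralogues and the genes at both ends named, points for edgeR's estimate from 3 WT and 3 KO libraries, bars for the 95% confidence interval and colours for core 60S, core 40S, paralogue and other genes. Rpl3l stands alone at -1.09, and the core genes run from -0.22 for Rps27 to 0.76 for Rpl5.

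The 5 core genes with the highest fold changes were all among the 26 with the longest coding sequences. Rpl4, whose loop lines the exit tunnel of the large subunit, had 631, 1068 and 854 CPM in WT and 1586, 1452 and 1170 CPM in KO. The KO values lay above all WT values, WT replicate 2 came nearest to them, and the log2 fold change was 0.72 ± 0.23 (SE), with an adjusted p of 0.0900 in edgeR's quasi-likelihood test. Rpl3, which reaches into the catalytic centre of the 60S subunit, had 482, 786 and 606 CPM in WT and 1025, 985 and 879 CPM in KO. These groups did not overlap either, and the log2 fold change was 0.62 ± 0.20 with an adjusted p of 0.0925 in the same edgeR test.

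Rpl5, a protein that carries the 5S rRNA into the large subunit and can bind the p53 regulator Mdm2, had the highest estimate, 0.76 ± 0.26 on the log2 scale. Its levels were 298, 454 and 356 CPM in WT and 743, 730 and 404 CPM in KO. KO replicate 3 fell among the WT values, and the adjusted p in edgeR's test was 0.107. Rpl7, an RNA-binding protein of the large subunit, behaved in the same way, with 377, 592 and 456 CPM in WT and 953, 868 and 491 CPM in KO. Rps3a1, a 40S protein close to the mRNA exit, had 404, 633 and 461 CPM in WT and 938, 869 and 508 CPM in KO. For both, the values of WT replicate 2 and KO replicate 3 crossed, and the log2 fold changes were 0.70 ± 0.27 and 0.63 ± 0.27. Rps6, the 40S target of the S6 kinases, and Rps4x, an X-linked 40S protein, followed at 0.61 and 0.59, and the KO values of Rps6, 671, 631 and 526 CPM, all exceeded its WT values of 311, 468 and 416 CPM. Rps6 was chosen after its values were seen.

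The 5 lowest core genes showed fold changes within their standard errors or little beyond. Rps27, a zinc finger protein of the 40S subunit, had 140, 96.8 and 162 CPM in WT and 107, 102 and 133 CPM in KO (log2 fold change -0.22 ± 0.21). Rps29, another small zinc-binding 40S protein, had a log2 fold change of -0.17 ± 0.20. The stalk protein Rplp2 stood at -0.13 ± 0.15, the 40S protein Rps21 at -0.12 ± 0.21 and Rpl38, a 60S protein known from the tail-short mouse, at -0.10 ± 0.20. All 5 had overlapping groups. The lowest WT value of Rps27, Rps29, Rps21 and Rpl38 was that of WT replicate 2, and in all 4 genes the lowest KO value was that of KO replicate 2.

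The fold change of the core genes varied with the length of their coding sequence. Across the 77 core genes Pearson's r between the log2 fold change and the log2 coding length was 0.62 and Spearman's rho 0.64, given as a description, since the genes share the same 6 libraries and their depth. With the number of exons r was 0.60, with GC content -0.28, with the share of repeated windows 0.17 and with the WT level -0.02. Over all tested genes with a coding length r was 0.09 and rho 0.16. With GC content r over all tested genes with an mRNA model was -0.25 and rho -0.41, beside a rho of -0.23 in the core genes. With the number of exons r over all such genes was 0.05 and rho 0.17. The 26 core genes with the longest coding sequences, of 579 to 1260 nucleotides, had a median log2 fold change of 0.25, and 23 of them were above 0. The 25 genes of middle length had a median of 0.09, and the 26 shortest, of 78 to 408 nucleotides, a median of -0.02 with 11 above 0. All 12 core genes with an unadjusted p under 0.05 were among the 26 longest.

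**Figure D2:**
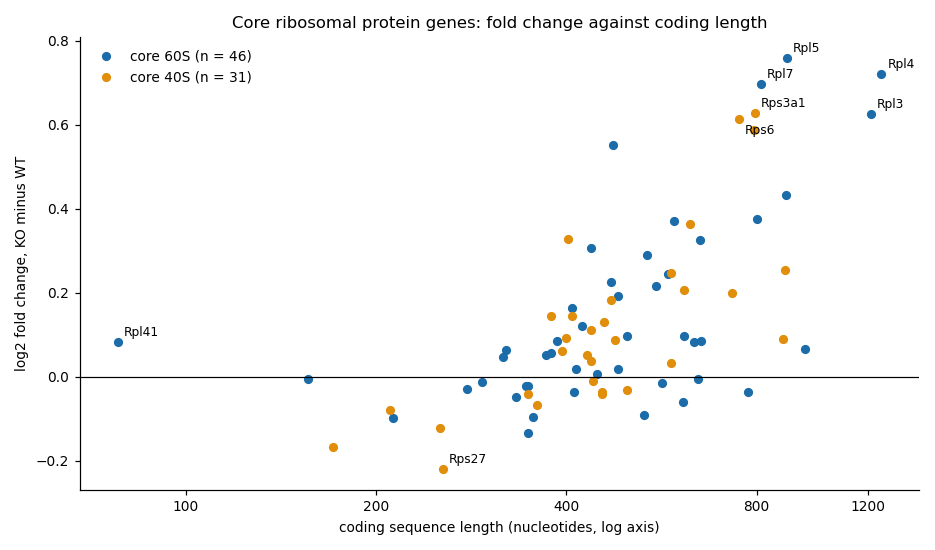
Log2 fold change (vertical axis, KO minus WT) of the 77 core genes against coding length in nucleotides (log axis), 1 point per gene, coloured by subunit, with 8 genes named. The values rise from a median of -0.02 in the shortest 26 genes to 0.25 in the longest 26.

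The same pattern was seen in single libraries. The mean log2 level of the 26 long genes, relative to the mean of the 6 libraries, was -0.25, -0.11 and -0.11 in WT and 0.21, 0.11 and 0.14 in KO, so that the genotypes did not overlap. For the 26 short genes the same measure was 0.06, -0.23 and 0.17 in WT and -0.01, -0.12 and 0.14 in KO, and the genotypes overlapped fully. WT replicate 2 was the lowest WT library in 24 of the 26 short genes and KO replicate 2 the lowest KO library in 22 of them. In the long genes WT replicate 2 was the highest WT library in 13 and the lowest in 12. When the trend of each library on transcript length was removed over all genes, an alternative chosen after seeing the data, the core median rose to 0.23 and 0 members were called. The part of length in these values was not tested further.

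**Figure D3:**
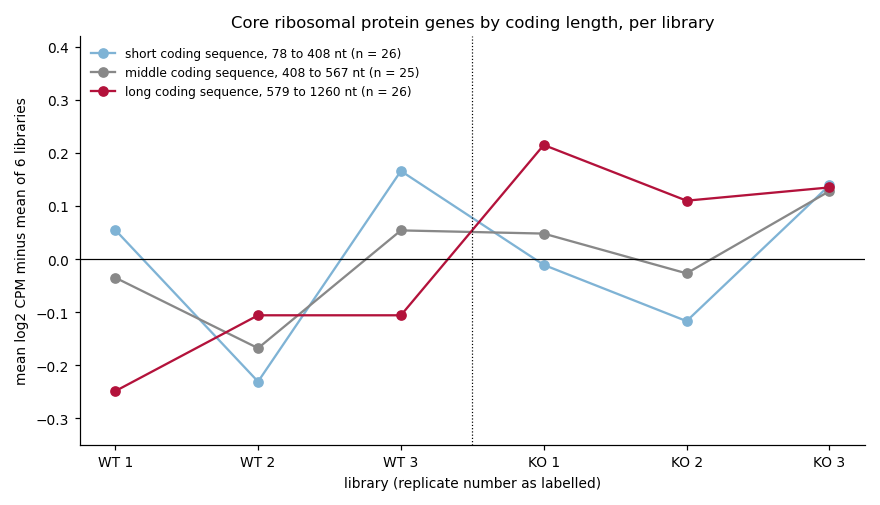
Mean log2 CPM of the core genes in each of the 6 libraries (vertical axis, minus the mean of the 6 libraries) for the 26 short, 25 middle and 26 long genes by coding length, with lines joining the libraries. The long genes lie between -0.25 and -0.11 in WT and between 0.11 and 0.21 in KO, whereas the short genes vary as much within a genotype as between genotypes.

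The count of called core genes depended on the test and on KO replicate 3. edgeR's exact test called Rpl3, Rpl4 and Rps6 higher in KO (3 of 77), where it called 15.3% of all genes and 7.65% higher. DESeq2 called 7 core genes higher (Rpl3, Rpl4, Rpl5, Rpl6, Rpl10a, Rpl19 and Rps6), where it called 14.2% of all genes and 8.93% higher. limma-voom called 0 core genes, and 6.3% of all genes. Without KO replicate 3 the quasi-likelihood test called 8 core genes higher (Rpl3, Rpl4, Rpl5, Rpl7, Rpl24, Rps3a1, Rps4x and Rps6), where it called 33% of all genes and 16.9% higher. No core gene was called lower in any of these fits.

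Rpl3l had the lowest fold change of the 85 members. Its levels were 103, 75.8 and 82.8 CPM in WT (87.3 ± 14.2, SD, n = 3) and 26.45, 37.3 and 59.05 CPM in KO (40.9 ± 16.6), from 518 counts in KO replicate 1 up to 2849 counts in WT replicate 1. The 3 KO values lay below the 3 WT values, and KO replicate 3 stood nearest to WT. The log2 fold change was -1.09 ± 0.28 (SE) with a 95% confidence interval of -1.74 to -0.45, and the adjusted p in edgeR's quasi-likelihood test, 0.0590, did not pass 0.05. The exact test of edgeR gave an adjusted p of 0.00492, DESeq2 0.00755 and limma-voom 0.0480, so Rpl3l was called lower by these 3 tests. In the quasi-likelihood test without KO replicate 3 the log2 fold change was -1.45 and the adjusted p 0.00145, and without any other library the adjusted p lay between 0.0960 and 0.239.

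Rpl3l was also set against its parent within each library. For every 100 counts of Rpl3, the WT libraries held 21.4, 9.64 and 13.7 counts of Rpl3l and the KO libraries 2.58, 3.79 and 6.72. The log2 ratio was -2.82 ± 0.58 (SD, n = 3) in WT and -4.63 ± 0.70 in KO, a difference of -1.81. This difference includes that of Rpl3 itself, whose log2 fold change was 0.625. The counts of Rpl3 are uncertain, since 79.4% of its windows were repeated in other genes. A two-sided exact permutation test gave p = 0.1, the smallest that 3 against 3 libraries allow, and 0.7 after Benjamini-Hochberg adjustment over the 7 paralogue pairs compared. Relative to the summed core genes Rpl3l differed by -1.32 on the log2 scale, again with an exact p of 0.1.

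Relative to genes of skeletal muscle, the difference of Rpl3l was small. The list held 22 genes of muscle contraction and its energy supply, of which 21 passed the filter. All 21 had fold changes below 0, with a median of -1.0, and KO lay below WT without overlap in 19, where 18.1% of all genes did. edgeR's quasi-likelihood test called 3 of them lower, where it called 2.09% of all genes lower, namely Tcap, Tnnt3 and Tnni2. Its exact test called 16, DESeq2 15 and limma-voom 4, where they called 15.3%, 14.2% and 6.3% of all genes in either direction. The quasi-likelihood test called 18 without KO replicate 3, where it called 33% of all genes in either direction. It called 0 without any of the other 5 libraries. Tcap, a protein of the sarcomere's Z disc, had 375, 419 and 314 CPM in WT and 154, 154 and 232 CPM in KO. Tnnt3 and Tnni2, subunits of troponin in fast fibres, had log2 fold changes of -1.01 ± 0.22 and -1.05 ± 0.25. The summed level of the 21 genes was 17920 to 23550 CPM in WT and 8440 to 14200 CPM in KO, and of the list's defining genes Tnnc2 was nearly undetected, with at most 5 counts in a library. Per 1000 counts of these muscle genes there were 4.38, 4.23 and 3.79 counts of Rpl3l in WT and 3.13, 4.09 and 4.16 in KO. These values overlapped, the log2 difference was -0.13, and the exact permutation p was 0.5.

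**Figure D4:**
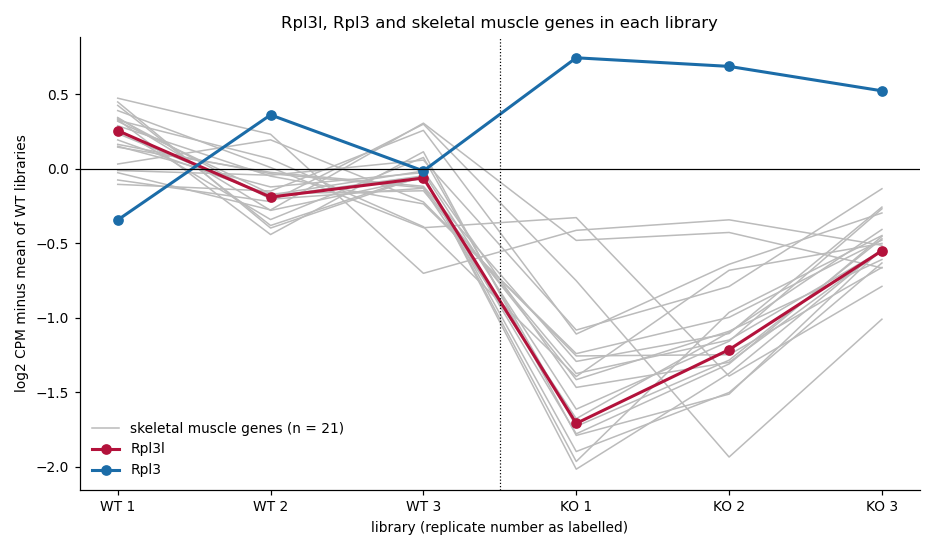
Log2 CPM in each library (vertical axis, minus the mean of the 3 WT libraries) of Rpl3l in red, its parent Rpl3 in blue and the 21 skeletal muscle genes in grey. The Rpl3l line runs within the grey lines, lowest in KO replicate 1 and nearest to WT in KO replicate 3, while Rpl3 lies above its WT mean in every KO library.

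Rpl36al and Rpl7l1 were the paralogues with KO values above all WT values. Rpl36al, an autosomal copy of the X-linked Rpl36a, had 85.9, 90.3 and 91.8 CPM in WT and 141, 123 and 107 CPM in KO, a log2 fold change of 0.47 ± 0.14. Its parent Rpl36a had 240, 201 and 244 CPM in WT and 241, 221 and 254 CPM in KO, a log2 fold change of 0.07 ± 0.14. The counts of Rpl36al per 100 of Rpl36a were 35.8, 45.0 and 37.6 in WT and 58.4, 55.9 and 42.1 in KO. These ratios overlapped between the genotypes, and the exact permutation p was 0.2. Repeated windows made up 59% of Rpl36al and 83.6% of Rpl36a, so the counts of both genes are uncertain. Rpl7l1, which is related to Rpl7, had 60.9, 70.5 and 58.9 CPM in WT and 82.1, 83.7 and 94.05 CPM in KO, a log2 fold change of 0.45 ± 0.13. Both paralogues had an adjusted p of 0.079 in edgeR's quasi-likelihood test (0.0788 and 0.0787), and both were called higher by DESeq2.

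The remaining paralogues did not separate the genotypes. Rpl22l1, which can compensate for the loss of the RNA-binding protein Rpl22, had 97.0, 86.0 and 102 CPM in WT and 105, 91.8 and 94.05 CPM in KO, a log2 fold change of 0.03 ± 0.13, and Rpl22 had one of 0.09 ± 0.14. The 95% confidence interval of Rpl22l1 was -0.27 to 0.33. Rps27l, known as a p53 target, had 79.4, 57.8 and 96.5 CPM in WT and 60.6, 60.9 and 83.1 CPM in KO, a log2 fold change of -0.19 ± 0.21. Its ratio to its parent Rps27 varied little, with 56.8 to 59.7 counts for every 100 of Rps27 in WT and 56.8 to 62.3 in KO. Both genes were lowest in replicate 2 and highest in replicate 3 of WT.

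A pair of paralogues came from intronless copies. Rps4y2, a processed pseudogene by annotation with 1 exon on chromosome 6 (148354656 to 148355598), had 14.8, 10.8 and 16.5 CPM in WT and 9.91, 9.58 and 21.6 CPM in KO, so KO replicate 3 was the highest and the other KO libraries the lowest of the 6. Rps3a2, a processed pseudogene of Rps3a1 on chromosome 14 (88123017 to 88123808), had 1.23, 1.87 and 1.30 CPM in WT and 2.55, 3.15 and 1.23 CPM in KO. Since 78.6% of its windows occur in another gene, mostly Rps3a1, reads of these genes cannot be fully separated, and its counts stayed at 0.243% to 0.362% of those of Rps3a1 in the 6 libraries. Without KO replicate 3, Rps3a2 was called higher by the quasi-likelihood test together with Rpl36al. Rps19bp1 had 12.2, 12.4 and 13.6 CPM in WT and 12.7, 11.2 and 15.6 CPM in KO, a log2 fold change of 0.05 ± 0.17.

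**Figure D5:**
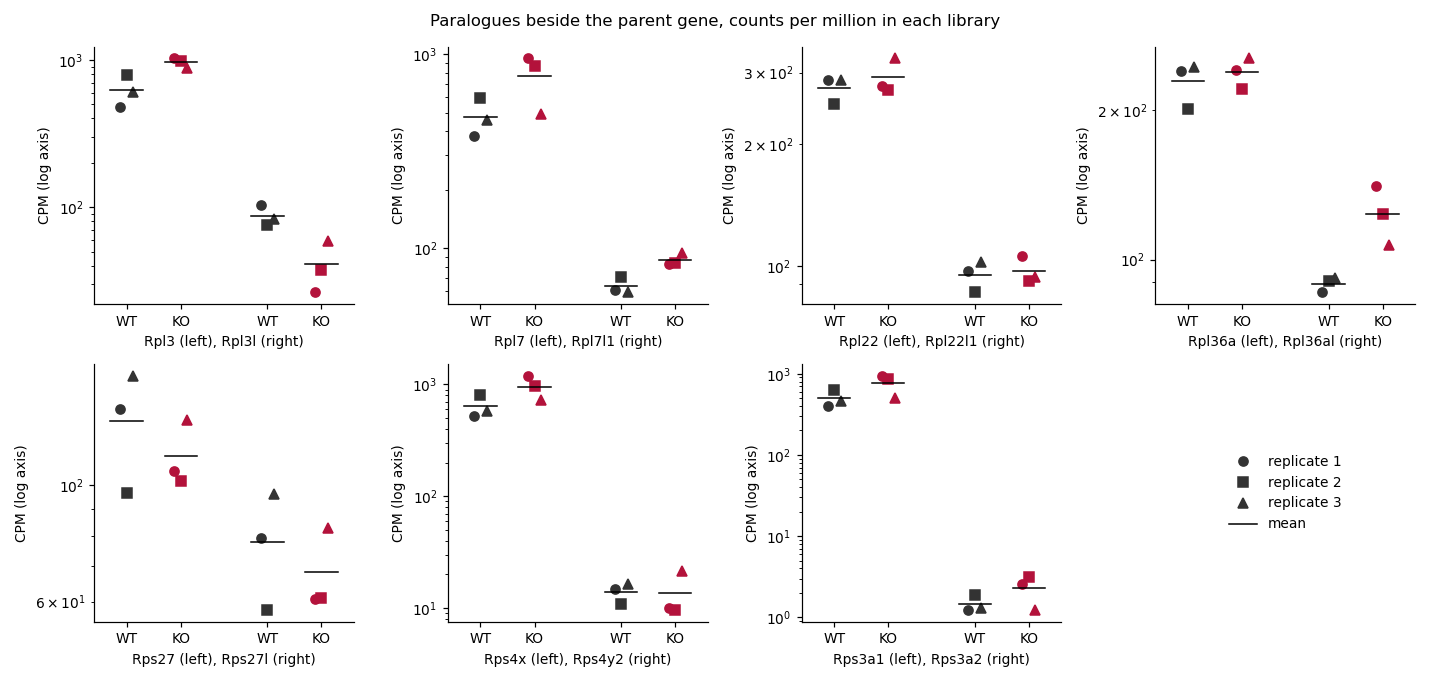
CPM (log axis) of 7 paralogues and their parent genes in the 3 WT and 3 KO libraries, with a symbol for each replicate number and a line for the mean. Rpl3l averages 87.3 CPM in WT and 40.9 CPM in KO, Rpl3 averages 624 and 963 CPM, and Rps27l and Rps27 are both highest in WT replicate 3 and lowest in WT replicate 2.

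Per kilobase of mRNA model, the paralogues lay below nearly all core genes. WT levels were 172 ± 15.2 CPM per kb for Rpl22l1, 170 ± 5.81 for Rpl36al and 156 ± 38.8 for Rps27l. These levels differed from each other by less than the SD of Rps27l. Rpl3l followed with 63.5 ± 10.4 and Rpl7l1 with 48.4 ± 4.72, then Rps4y2 with 17.8 ± 3.68 and Rps3a2 with 1.85 ± 0.44 CPM per kb. Only 4 of the 77 core genes were below the level of Rpl22l1. The parents Rpl3, Rpl7, Rpl22, Rpl36a, Rps27, Rps4x and Rps3a1 had 462, 408, 581, 473, 385, 653 and 511 CPM per kb in WT, each above its paralogue. Among the symbols that failed the filter, Rpl39l, known from the testis, had 3 to 14 counts in a library, and Rps12l1 and Rps12l2 had 0 to 3. Spermatid genes were also near 0, with at most 3 counts in any library for Prm1, Tnp2, Acrv1 and Odf1.

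Genes that work with the ribosome were read from lists and are given by their counts. The quasi-likelihood test called 6.47% of all genes, and 4.38% higher in KO. edgeR's exact test called 15.3% of all genes (7.65% higher), DESeq2 14.2% (8.93% higher) and limma-voom 6.3%. With KO replicate 3 left out, the quasi-likelihood test called 33% of all genes, and 16.9% higher. Shares of all genes without each of the other libraries are not given here. The ribosomal proteins Fau and Gnb2l1 (Rack1), whose symbols fall outside the naming rule, had log2 fold changes of -0.03 and 0.35, and neither was called by any of the 4 tests or had an unadjusted p under 0.05. Translation factors and other proteins whose mRNAs carry a TOP tract numbered 16, of which 0 were called and 14 were above 0, with a median of 0.26, while edgeR's exact test called 2, DESeq2 5 and limma-voom 0. Without KO replicate 3 the quasi-likelihood test called 5. In 10 of these 16 the KO values lay above all WT values, where 13.5% of all genes did, and 5 had an unadjusted p under 0.05 with higher KO means, again beside 13.5% of all genes. Of 37 ribosome biogenesis factors, 5 rose in KO by edgeR's quasi-likelihood test, where 4.38% of all genes did, 17 by its exact test, 19 by DESeq2 and 6 by limma-voom, 34 were above 0 and the median was 0.53. The quasi-likelihood count was 17 without KO replicate 3, 12 without WT replicate 2, 1 without WT replicate 1 or KO replicate 1 and 0 without WT replicate 3 or KO replicate 2. Ddx21, a nucleolar RNA helicase, had 71.2, 101 and 94.8 CPM in WT and 175, 168 and 169 CPM in KO, a log2 fold change of 0.94 ± 0.16. Ncl, which encodes nucleolin, had 174, 253 and 249 CPM in WT and 584, 522 and 360 CPM in KO, a log2 fold change of 1.11 ± 0.22. Heatr1, a factor of early pre-rRNA processing, and Ftsj3, a methyltransferase-like factor, rose by 1.02 ± 0.19 and 1.05 ± 0.20 on the log2 scale. Of 17 RNA polymerase I genes 1 rose, the subunit gene Polr1e (0.93 ± 0.20), with a list median of 0.20, and the count was 3 without KO replicate 3, 1 without WT replicate 2 and 0 without any other library. The 8 dedicated ribosomal protein chaperones had 0 calls in the quasi-likelihood test, 1 in DESeq2 and 0 in the exact test and limma-voom, 2 with an unadjusted p under 0.05, and a median of 0.18. The quasi-likelihood test called 1 of them without KO replicate 3.

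Ribosomal proteins of the mitochondrion, which form a separate ribosome, served as a second set of ribosomal protein genes. Of 75 such genes 0 were called by edgeR's quasi-likelihood test, edgeR's exact test, DESeq2 and limma-voom also called 0, 3 had an unadjusted p under 0.05, and the median log2 fold change was -0.05. The lowest p belonged to Mrps22, at 0.58 ± 0.21, and Mrpl34, at -0.56 ± 0.23. Without KO replicate 3 the quasi-likelihood test called 2 mitochondrial genes higher and 4 lower, where it called 33% of all genes, and 16.9% higher. The kinases of Rps6 and their relatives had 0 calls of 9 in the quasi-likelihood test and in limma-voom, 1 in the exact test and in DESeq2, 3 with an unadjusted p under 0.05, and a median of 0.28. Leaving out KO replicate 3 gave 4 called higher and 1 lower, beside the same 33% of all genes.

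Some marker genes of other cell types of the lip, and some genes of mitosis, also differed between the genotypes. Whether the amounts of these cell types differed, and their part in the values of the core genes, was not tested. The counts stand beside 4.38% of all genes called higher and 2.09% called lower by the quasi-likelihood test. The exact test called 15.3% of all genes in either direction (7.65% higher) and DESeq2 14.2% (8.93% higher). Of 8 basal keratinocyte genes 1 was called higher, Dst (log2 fold change 1.37 ± 0.29), with a list median of 0.03. In this list 4 genes were above 0 and 4 below, and KO lay apart from WT above it in 3 and below it in 2. Of 8 suprabasal genes 1 was called higher, Ivl, which encodes involucrin (1.54 ± 0.31), with a median of 0.52, and the exact test and DESeq2 each called 4. In all 13 hair follicle genes tested the fold change was below 0, with a median of -0.62, and 3 were called lower, Padi3, Hoxc13 and Lef1 (4 by the exact test and 5 by DESeq2). Of 12 mitosis genes 11 were above 0, with a median of 1.08, and 4 were called higher, Ccnb1, Prc1, Anln and Top2a (7 by the exact test and by DESeq2). Fabp4 was the 1 adipocyte gene of 6 called lower, with a list median of -0.75. The 10 fibroblast, 7 macrophage, 5 erythroid and 4 T cell genes tested had 0 calls in edgeR's quasi-likelihood test and in the other 3 tests, with medians of -0.37, -0.14, -0.66 and 0.39 and 2 unadjusted p under 0.05 among them. Without KO replicate 3 the quasi-likelihood test called 33% of all genes in either direction, and 16.9% higher. In that fit 1 basal, 4 suprabasal and 7 mitosis genes were called higher. Called lower were 7 hair follicle, 3 adipocyte, 5 fibroblast and 3 macrophage genes. Without any other library the quasi-likelihood test called 0 keratinocyte and 0 adipocyte genes, at most 1 hair follicle gene and 1 to 5 mitosis genes.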

How the data were processed

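RNA of 3 WT and 3 KO lips was sequenced as mRNA libraries of paired-end reads. The authors mapped them to GRCm38 with TopHat2 2.0.8 and Bowtie2 2.1.0 and deposited whole-number counts per gene symbol from HTSeq, without normalization. The submitters' processing notes name the same tools, and the strand setting and counting mode are not given in the sources used here. Of the per-sample columns 0 were left unused, and 0 rows named no gene. Groups and replicate numbers came from the sample titles, with 1 mouse per library.

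Counts were tested in R 4.3.3 with edgeR 4.0.16 (TMM scaling, glmQLFit with legacy=FALSE, glmQLFTest) over genes that reached 1 CPM in 3 or more libraries, with Benjamini-Hochberg adjustment over all 15009 and a threshold of 0.05. Tested genes held 99.8% of counts. Limits from 3 counts cover counting error only. CPM are TMM-scaled. Alternatives were edgeR's exact test, which the study's methods name, DESeq2 1.42.0, limma-voom (limma 3.58.1), the older quasi-likelihood fit, and other scalings and filters. An adjusted p under 0.1, summing with the -ps rows, a replicate block and leaving out each library were also used. A length-trend correction was added after seeing the data. Scripts were tested on simulated data.

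Members and lists were chosen with earlier results of these data known. Genes named with values were the paralogues and their parents, the 5 core genes at each end of the fold changes, the 3 at each end of the levels per length, and called members of other lists, at most 4 in each direction. Some genes are not reported here by name. mRNA models were the shortest GENCODE vM21 transcripts with the principal coding sequence, and all 85 members were matched. Levels per kilobase depend on that choice. Pairs were aligned with Biopython 1.88.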

Additional observations from a re-analysis of the deposited data

How the results depend on the processing

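The count of core genes called higher, 0 in the quasi-likelihood test, was 3 with edgeR's exact test, 7 with DESeq2 and 4 at an adjusted p under 0.1. Of all genes the exact test called 7.65% higher and DESeq2 8.93%. The count of called paralogues, also 0, was 1 with the exact test, 3 with DESeq2, 1 with limma-voom and 3 at an adjusted p under 0.1, and the count over all members was 4, 10, 1 and 7. In either direction the exact test called 15.3% of all genes, DESeq2 14.2% and limma-voom 6.3%. The share of all genes at an adjusted p under 0.1 was not counted, so the counts at that limit have no background beside them. The log2 fold change of Rpl3l, -1.09, passed the threshold with the exact test (-1.09), DESeq2 (-1.04), limma-voom (-1.155) and at an adjusted p under 0.1 (-1.09). With 1 library left out at a time, the count of core genes called higher ranged from 0 to 8, that of paralogues from 0 to 3 and that of all members from 0 to 11, and in each case the high value was that without KO replicate 3 and every other library gave 0. Without KO replicate 3 the test called 33% of all genes, and 16.9% higher. The log2 fold change of Rpl3l then ranged from -1.45 to -0.80 and the core median from 0.02 to 0.175. The difference between genotypes (KO minus WT) in the log2 ratio of Rpl3l to Rpl3 ranged from -2.18 to -1.49. The core median, 0.08, was 0.03 with upper quartile scaling, 0.13 with DESeq2, 0.11 with DESeq2's size factors in edgeR, 0.135 with no filter and 0.23 with the trend on transcript length removed. Calls of skeletal muscle genes were 3, but 18 without KO replicate 3 and 0 without any other library. Core genes called lower numbered 0 throughout. With the replicate number as a replicate block, 0 members were called, and Rpl3l had an adjusted p of 0.0651 in edgeR's test. The deviations of same-numbered libraries correlated at -0.19, 0.31 and 0.33, so the numbers were not taken as pairs, and not every library correlated best with its own number. Other scalings moved the median of all genes to between -0.08 and 0.01 and called 0 members. The cause of these changes was not tested. With 3 libraries per genotype the exact permutation test cannot go below 0.1. Genes with many repeated windows may have lost reads to copies, and the depth of 518 counts or more behind Rpl3l was not limiting.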
